A study of Rattus norvegicus with 16 samples.

Results

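The set described here is 8 rat genes of the endoplasmic reticulum (ER) unfolded protein response: Hspa5, Xbp1, Herpud1, Dnajb9, Hsp90b1, Pdia4, Sdf2l1 and Creld2. They are 8 of the 20395 genes tested on the arrays and were chosen as ER chaperones and genes of the XBP1 branch. Their probes were found through the RefSeq accession of each probe, mapped to the rat symbol. Each gene had 1 probe except Sdf2l1, which had 2, and every one of these probes was well above background in all 32 channel measurements.

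The cells were primary cultured hepatocytes of male Sprague Dawley rats, kept in Williams Medium E. At 48 hours after plating they received 100 µM SQ1 or 30 µM pravastatin, or nothing, for another 48 hours. The code name SQ1 usually stands in hepatocyte work for squalestatin 1, an inhibitor of squalene synthase, and pravastatin is a statin, which blocks the same pathway upstream at HMG-CoA reductase. Each of the 16 2-colour Agilent arrays held RNA of 1 treated and 1 untreated culture, with 8 arrays per drug and 4 in each dye orientation. The design text calls the cultures biological replicates. No label says whether they came from separate rats, so p-values measure the spread between these cultures. Control numbers in the scanner file names were the same on same-numbered arrays of both drugs, so the 2 drugs' comparisons may share untreated cultures.

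The ER folds and modifies proteins bound for secretion, and hepatocytes, which secrete most plasma proteins, carry a large load of them. When unfolded proteins build up, the sensor IRE1 (gene Ern1) splices the Xbp1 transcript so that it encodes an active transcription factor, ATF6 is cleaved into another, and PERK (gene Eif2ak3) slows translation and raises ATF4. XBP1 and ATF6 drive genes of chaperones, folding enzymes and ER-associated degradation (ERAD) through promoter motifs known as ER stress response elements. The array has 1 probe for Xbp1, which gives no separate value for its spliced form.

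The upstream sequences of these genes are shown because they hold the motifs through which this response is known to act. The 250 bases before the annotated start of each gene were read from RefSeq's table for assembly GRCr8, in which all 8 genes were found. The ER stress response element, ERSE, was searched on both strands as CCAAT and CCACG with 9 free bases between them, and ERSE-II as ATTGG and CCACG with 1 free base between them. ERSE was present in 21 of 27457 rat promoters of this length (0.0765%), and 4 of these were upstream of Hspa5, Xbp1, Hsp90b1 and Creld2. ERSE-II was present in 12 (0.0437%), one of which was upstream of Herpud1. The sequences run 5′ to 3′ on the gene's own strand, and the capitals mark the fixed letters of the motif.
Hspa5, chr3:38452766-38453015, plus strand: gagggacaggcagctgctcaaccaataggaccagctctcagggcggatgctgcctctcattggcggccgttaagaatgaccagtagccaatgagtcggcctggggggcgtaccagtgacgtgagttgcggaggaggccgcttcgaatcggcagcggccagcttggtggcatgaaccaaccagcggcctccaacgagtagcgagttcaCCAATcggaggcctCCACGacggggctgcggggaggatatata
Xbp1, chr14:84604373-84604622, plus strand: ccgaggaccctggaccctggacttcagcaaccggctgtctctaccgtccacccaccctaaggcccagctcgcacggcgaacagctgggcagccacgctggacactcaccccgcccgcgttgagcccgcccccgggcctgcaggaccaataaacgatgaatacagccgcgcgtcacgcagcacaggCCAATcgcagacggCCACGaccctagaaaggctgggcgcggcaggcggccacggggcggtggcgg
Hsp90b1, chr7:23012294-23012543, minus strand: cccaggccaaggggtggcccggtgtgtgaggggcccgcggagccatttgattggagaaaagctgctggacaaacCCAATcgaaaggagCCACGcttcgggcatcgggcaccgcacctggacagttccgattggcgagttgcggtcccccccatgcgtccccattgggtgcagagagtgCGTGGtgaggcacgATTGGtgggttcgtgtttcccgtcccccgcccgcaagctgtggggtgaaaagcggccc
Creld2, chr7:121789134-121789383, plus strand: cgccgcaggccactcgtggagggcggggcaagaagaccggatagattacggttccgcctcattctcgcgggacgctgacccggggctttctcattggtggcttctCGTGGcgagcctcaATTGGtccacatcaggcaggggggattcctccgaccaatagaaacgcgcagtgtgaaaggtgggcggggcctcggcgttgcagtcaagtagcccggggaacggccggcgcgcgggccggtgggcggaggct
Herpud1, chr19:10614708-10614957, minus strand: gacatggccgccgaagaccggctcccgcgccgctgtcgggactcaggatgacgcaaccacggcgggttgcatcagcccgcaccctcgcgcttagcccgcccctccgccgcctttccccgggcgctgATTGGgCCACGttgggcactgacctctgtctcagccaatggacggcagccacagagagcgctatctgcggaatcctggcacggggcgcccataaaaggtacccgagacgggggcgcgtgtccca

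The ERSE of Hspa5 lay at -43 to -25 bases from the annotated start and that of Xbp1 at -65 to -47. Hsp90b1 held a match at -176 to -158 and another, on the opposite strand, at -72 to -54. The match of Creld2, at -145 to -127, was also on the opposite strand, and the ERSE-II of Herpud1 lay at -124 to -114. Dnajb9, Pdia4 and Sdf2l1 held neither element in this window. The CCAAT box, which is part of every ERSE and, on the opposite strand, of every ERSE-II, was present upstream of all 8 genes and of 34.3% of all promoters. The XBP1-type core TGACGTGG (0.55% of promoters) and TGACGTCA (1.7%) were present in none of the 8. A match is a string of letters and was not tested as a binding site.

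**Figure D1:**
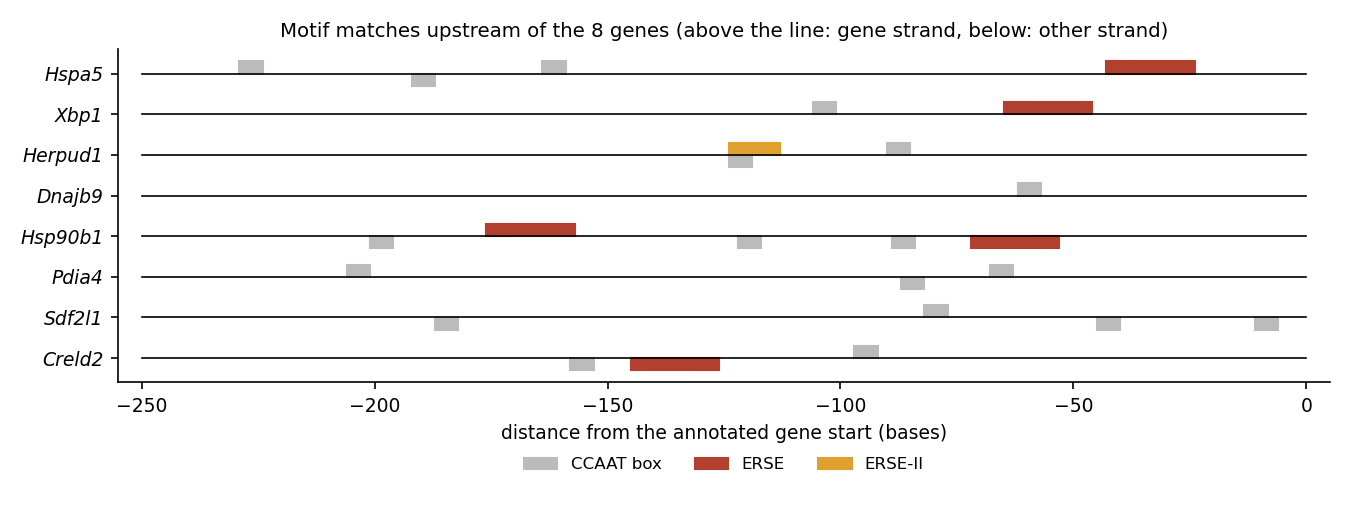
Positions of motif matches in the 250 bases upstream of the 8 genes, in bases from the annotated gene start; blocks above each line are on the gene's strand and blocks below on the other. ERSE (red) is present in Hspa5, Xbp1, Hsp90b1 and Creld2, ERSE-II (yellow) in Herpud1, and CCAAT boxes (grey) in all 8.

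Values are log2 ratios of the treated over the untreated culture on the same array, and normalised log2 signals of each culture. A gene was called when its Benjamini-Hochberg adjusted p, from a limma fit over all genes with terms for each drug and for the dye, was under 0.05. Insig1 and Idi1, targets of the sterol-sensing factor SREBP2, checked the treatments: the log2 fold change was 2.91 ± 0.043 with SQ1 and 2.62 ± 0.043 with pravastatin for Insig1, and 4.30 ± 0.082 with SQ1 and 4.44 ± 0.082 with pravastatin for Idi1 (SE, n = 8 arrays each). All 10 hepatocyte markers examined were well above background in every channel. Array log ratios correlated at 0.745 to 0.954 among SQ1 arrays and at 0.562 to 0.907 among pravastatin arrays. Every column of the deposited value table matched the scanner file with its replicate number but under the other drug. Drug names here follow the scanner files and the sample labels they are filed under. Under the labels of the value table's own columns the drugs' values below would change places. Insig1 and Idi1 rose with both drugs, so they do not settle which labels are right. The 4 slides each held 1 drug, so a difference between the drugs and one between slides cannot be told apart.

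With SQ1, 6 of the 8 genes fell and 1 rose. The chaperone Hsp90b1 (a log2 fold change of -0.59), the transcription factor Xbp1 (-0.57) and the co-chaperone Dnajb9 (-0.42) fell the most. Creld2 (-0.24) and Pdia4 (-0.20) fell less, as did Hspa5 (-0.18), whose value was 0.04 and not called with median centring in place of loess. Sdf2l1 rose by 0.10 and Herpud1, at -0.08, was not called. Over all genes tested, 31.2% were called lower and 32.7% higher with SQ1. The median log2 fold change was -0.22 over the 8 genes and 0.0077 over all genes tested. When arrays were also scaled to 1 spread, 3 of the 8 were called lower (Xbp1, Hsp90b1 and Pdia4) and 0 higher.

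With pravastatin, 6 of the 8 genes fell and 0 rose. Herpud1 (-0.25) and Dnajb9 (-0.22) fell the most, followed by Sdf2l1, Pdia4, Xbp1 and Creld2, while Hspa5 (-0.02) and Hsp90b1 (0.10) were not called. Over all genes tested, 19.7% were called lower and 19.4% higher with pravastatin. The median was -0.14 over the 8 genes, and 0.0019 over all genes. With median centring in place of loess, 3 of the 8 were called lower and 1, Hsp90b1, higher.

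Between the drugs, SQ1 gave lower values than pravastatin for Hsp90b1, Xbp1, Dnajb9 and Creld2 and higher values for Sdf2l1 and Herpud1. Over all genes, 19.5% were called lower and 18.5% higher with SQ1 than with pravastatin. Hspa5 and Pdia4 were not called in this difference. The split was 1 higher and 4 lower with Agilent's processed signals, and 2 higher and 2 lower with median centring. The doses differed, so this is a difference between the treatments as given.

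Xbp1 encodes the transcription factor of the IRE1 branch. Its normalised log2 signal was 14.63 to 14.76 (median 14.68) in SQ1 cultures, against 15.01 to 15.48 (median 15.30) in their untreated partners. The ranges did not overlap, and all 8 log2 ratios, from -0.84 to -0.30, were below 0. The log2 fold change with SQ1 was -0.57 ± 0.041 (SE, n = 8; limma adjusted p = 7.2e-10), or 1.49-fold lower. With pravastatin the signal was 14.85 to 15.14 (median 15.07), against 15.05 to 15.30 (median 15.17) in untreated cultures. These ranges overlapped, and 7 of 8 ratios were below 0. The pravastatin ratios divided by dye, at -0.08 to 0.09 on A555 arrays and -0.28 to -0.19 on A647 arrays. The dye term of Xbp1 was -0.096 ± 0.0287 (limma adjusted p = 0.024). The log2 fold change with pravastatin was -0.14 ± 0.041 (adjusted p = 0.012), and it was -0.07 and not called (adjusted p = 0.17) with median centring, nor with scaling to 1 spread (-0.11, adjusted p = 0.085). SQ1 minus pravastatin was -0.44 ± 0.057 (adjusted p = 7.6e-06), and SQ1 was lower in 8 of 8 same-numbered pairs of arrays.

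Hsp90b1 encodes GRP94, the HSP90 chaperone of the ER. Its log2 signal was 15.83 to 16.07 (median 15.95) in SQ1 cultures, against 16.37 to 16.71 (median 16.55) in untreated cultures. As for Xbp1, the groups did not overlap and all 8 ratios were below 0, from -0.74 to -0.45. Hsp90b1 fell with SQ1 by 0.59 ± 0.050 on the log2 scale (SE, n = 8; limma adjusted p = 9.5e-09). It was the single member of the 8 called lower by at least 1.5-fold, where 4.43% of all genes were, and Xbp1 lay just outside that size. In pravastatin cultures the signal was 16.42 to 16.69 (median 16.58), against 16.28 to 16.64 (median 16.46) in untreated cultures. Here the groups overlapped and 5 of 8 ratios were above 0. The log2 fold change with pravastatin was 0.10 ± 0.050 (adjusted p = 0.13). Without pravastatin replicate 1, whose ratio of -0.18 was the lowest, it was 0.14 and called (adjusted p = 0.025), and with median centring 0.19 (adjusted p = 0.0024). The difference between the drugs was -0.69 ± 0.071 (SQ1 minus pravastatin, adjusted p = 4.6e-07), the widest gap between the drugs among the 8 genes, with SQ1 lower in 8 of 8 pairs.

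Hspa5 encodes BiP, the HSP70 chaperone of the ER and the best-known reporter of the unfolded protein response. Its log2 signal was 16.92 to 17.52 (median 17.18) in SQ1 cultures, against 16.97 to 17.56 (median 17.40) in untreated cultures. The groups overlapped, and the ratios divided by dye. They were -0.65 to -0.45 on the 4 SQ1 arrays with treated RNA in A555 and 0.01 to 0.33 on the 4 with treated RNA in A647. The dye term of Hspa5 was 0.37 ± 0.033 (adjusted p = 3.3e-07), and 0.623% of all genes had a larger one. With the dye term in the fit, the log2 fold change of Hspa5 with SQ1 was -0.18 ± 0.047 (adjusted p = 0.0021), a call lost with median centring (0.04, adjusted p = 0.61) and with scaling to 1 spread (-0.14, adjusted p = 0.43). With pravastatin the ratios were -0.44 to -0.37 on A555 arrays and 0.08 to 0.59 on A647 arrays, and the log2 fold change was -0.02 ± 0.047 (adjusted p = 0.81, 95% interval -0.12 to 0.08). SQ1 minus pravastatin was -0.17 ± 0.066 (adjusted p = 0.056, 95% interval -0.30 to -0.03), with SQ1 lower in 7 of 8 pairs. With the replicate number as a random block the adjusted p of this difference was 0.03, and with it as a fixed block 0.069. The difference was also called without SQ1 replicate 1 (-0.18), 5 (-0.19) or 6 (-0.18), or without pravastatin replicate 6 (-0.21). Of the 2 culture series described below, it was called within series 2 (-0.32, limma adjusted p = 0.0079) and not within series 1 (-0.02, adjusted p = 0.92).

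**Figure D2:**
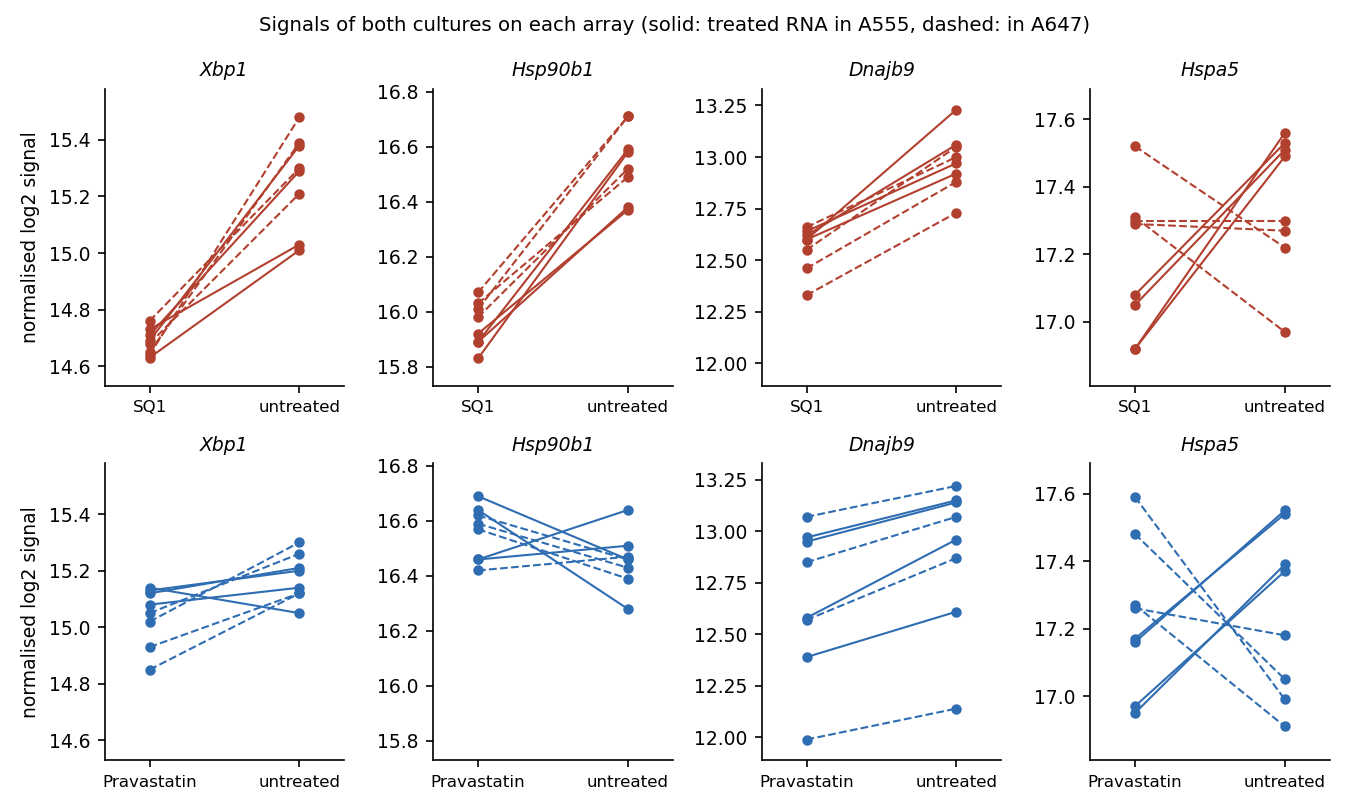
Normalised log2 signal (arbitrary units) of Xbp1, Hsp90b1, Dnajb9 and Hspa5 in the treated culture (left point) and the untreated culture (right point) of each array, with 1 line per array, solid where treated RNA was in A555 and dashed where it was in A647. In the SQ1 row, Xbp1, Hsp90b1 and Dnajb9 are lower than in every untreated culture of that row, while the Hspa5 lines slope opposite ways by dye.

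Dnajb9 and Sdf2l1 both serve HSPA5. Dnajb9 encodes ERdj4, a J-domain co-chaperone known to hold IRE1 inactive, and Sdf2l1 encodes a luminal partner of the J-protein ERdj3. The log2 signal of Dnajb9 was 12.33 to 12.66 (median 12.60) in SQ1 cultures, against 12.73 to 13.23 (median 12.98) in untreated cultures, with no overlap. Dnajb9 fell with SQ1 by 0.42 ± 0.033 (SE, n = 8; limma adjusted p = 2.7e-09), a call lost with arrays scaled to 1 spread (-0.33, adjusted p = 0.05 after rounding). In pravastatin cultures its signal was 11.99 to 13.07 (median 12.72), against 12.14 to 13.22 (median 13.02) in untreated cultures, and these overlapped widely while all 8 ratios, from -0.38 to -0.15, were below 0. The log2 fold change with pravastatin was -0.22 ± 0.033 (adjusted p = 3.3e-05). SQ1 minus pravastatin was -0.20 ± 0.047 (adjusted p = 0.0023), with SQ1 lower in 8 of 8 pairs, but it was 0.08 and not called (adjusted p = 0.80) with arrays scaled to 1 spread, and not called with median centring (-0.15, adjusted p = 0.099).

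Sdf2l1 differed in direction between the drugs. Its log2 signal was 12.33 to 12.65 (median 12.54) in SQ1 cultures, against 12.20 to 12.65 (median 12.42) in untreated cultures, which overlapped. With SQ1 it rose by 0.10 ± 0.031 (SE, n = 8; limma adjusted p = 0.0088), with 7 of 8 ratios above 0, a call lost with arrays scaled to 1 spread (0.08, adjusted p = 0.099). Its second probe gave 0.21 ± 0.026 (adjusted p = 1.3e-06), with every ratio above 0. In pravastatin cultures the signal was 12.07 to 12.30 (median 12.21), against 12.23 to 12.45 (median 12.35) in untreated cultures, and all 8 ratios were below 0. Sdf2l1 fell with pravastatin by 0.15 ± 0.031 (adjusted p = 0.00081), and the second probe gave -0.12 ± 0.026 (adjusted p = 0.0012). For Sdf2l1, SQ1 minus pravastatin was 0.25 ± 0.044 (adjusted p = 0.00017), with SQ1 higher in 8 of 8 pairs.

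Pdia4 encodes a disulfide isomerase of the ER, and Creld2 an ER protein with related activity. Pdia4 (ERp72) had SQ1 ratios of -0.45 to 0.02 (median -0.23), of which 6 of 8 were below 0. Its log2 fold change with SQ1 was -0.20 ± 0.048 (SE, n = 8; limma adjusted p = 0.0014), and -0.09 and not called (adjusted p = 0.06) with median centring. With pravastatin all 8 ratios, from -0.30 to -0.02 (median -0.11), were below 0 and the log2 fold change was -0.14 ± 0.048 (adjusted p = 0.027). That call was lost without pravastatin replicate 3 (adjusted p = 0.087), 7 (0.082) or 8 (0.075), and with median centring (0.10). The drugs were not told apart for Pdia4: SQ1 minus pravastatin was -0.06 ± 0.068 (adjusted p = 0.54), with a 95% interval of -0.20 to 0.08. Creld2 had SQ1 ratios of -0.42 to -0.02 (median -0.27), all below 0. It fell with SQ1 by 0.24 ± 0.029 (adjusted p = 1.1e-06), a call lost with arrays scaled to 1 spread (-0.18, adjusted p = 0.12). With pravastatin the ratios of Creld2 were -0.27 to 0.07 (median -0.05) and lay on both sides of 0. They divided by dye, at -0.27 to -0.06 on A555 arrays and -0.05 to 0.07 on A647 arrays. The SQ1 ratios did too, at -0.42 to -0.28 on A555 arrays and -0.25 to -0.02 on A647 arrays. The dye term of Creld2 was 0.108 ± 0.0205 (limma adjusted p = 0.0013), and 8.14% of all genes had a larger one. The log2 fold change of Creld2 with pravastatin was -0.09 ± 0.029 (adjusted p = 0.018). The call was lost without pravastatin replicate 2 (adjusted p = 0.053) or 6 (0.05) and with median centring (-0.08, adjusted p = 0.19). It was also lost with scaling to 1 spread, where the value lay farther from 0 with a wider SE (-0.21 ± 0.089, adjusted p = 0.068). SQ1 minus pravastatin was -0.14 ± 0.041 for Creld2 (adjusted p = 0.0095), lower in 8 of 8 pairs, but it was not called with median centring (-0.11, adjusted p = 0.21) or with scaling to 1 spread (0.04, adjusted p = 0.88).

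Herpud1 encodes HERP, a membrane protein that organises the ERAD ubiquitin ligase around HRD1. Its SQ1 ratios were -0.24 to 0.42 (median -0.16), and the highest was that of SQ1 replicate 6. The log2 fold change with SQ1 was -0.08 ± 0.046 (SE, n = 8; limma adjusted p = 0.16), and without SQ1 replicate 6 it was -0.14 and called (adjusted p = 0.00064). With median centring its sign turned, at 0.10, and it was not called (adjusted p = 0.094). Its pravastatin ratios, -0.38 to -0.17 (median -0.24), were all below 0. They were -0.38 to -0.28 on A555 arrays and -0.21 to -0.17 on A647 arrays. Herpud1 fell with pravastatin by 0.25 ± 0.046 (adjusted p = 0.00028), the largest decrease among the 8 genes with that drug. For Herpud1, SQ1 minus pravastatin was 0.18 ± 0.065 (adjusted p = 0.04), higher in 7 of 8 pairs. This call was lost without SQ1 replicate 3 or 5, or without pravastatin replicate 4, 5, 6, 7 or 8 (adjusted p between 0.062 and 0.074), and the value was 0.12 without SQ1 replicate 6. It was also lost with Agilent's processed signals (0.16, adjusted p = 0.063), with arrays scaled to 1 spread (0.35, adjusted p = 0.072) and with slide as a random block (adjusted p = 0.14).

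**Figure D3:**
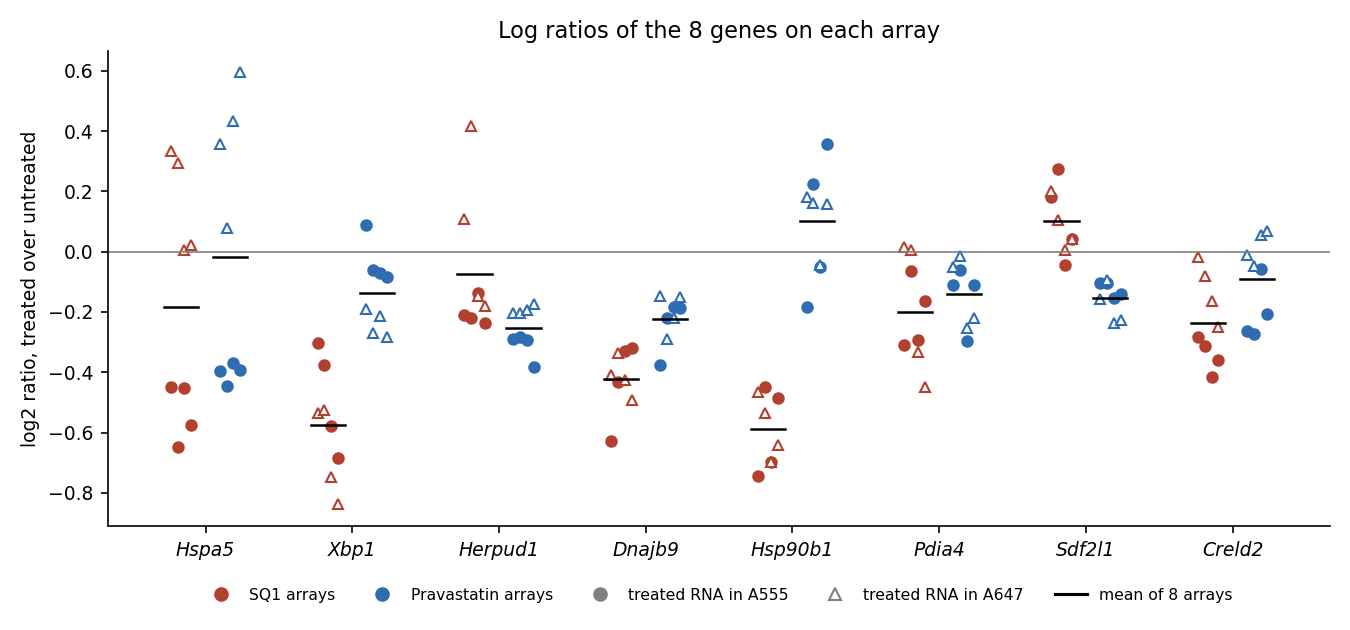
Log2 ratio of treated over untreated on each of the 16 arrays for the 8 genes, SQ1 (red) left of pravastatin (blue), with filled circles for treated RNA in A555, open triangles for A647 and a bar for the mean of 8 arrays. The SQ1 and pravastatin arrays do not overlap for Xbp1, Hsp90b1 and Sdf2l1. Hspa5 and Creld2 divide by dye with either drug, and Xbp1 and Herpud1 do so with pravastatin.

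Counted over the genes, treated and untreated signals did not overlap for 3 of the 8 with SQ1 (20.6% of all genes tested) and for 0 with pravastatin (4.77% of all genes). The ratio had 1 sign on all 8 arrays for 4 genes with SQ1 (Xbp1, Dnajb9, Hsp90b1 and Creld2; 42.3% of all genes) and for 4 with pravastatin (Herpud1, Dnajb9, Pdia4 and Sdf2l1; 22.5% of all genes). Dnajb9 was on both lists. The SQ1 arrays did not overlap the pravastatin arrays for 3 of the 8, Xbp1, Hsp90b1 and Sdf2l1, where 11.2% of all genes had none.

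**Figure D4:**
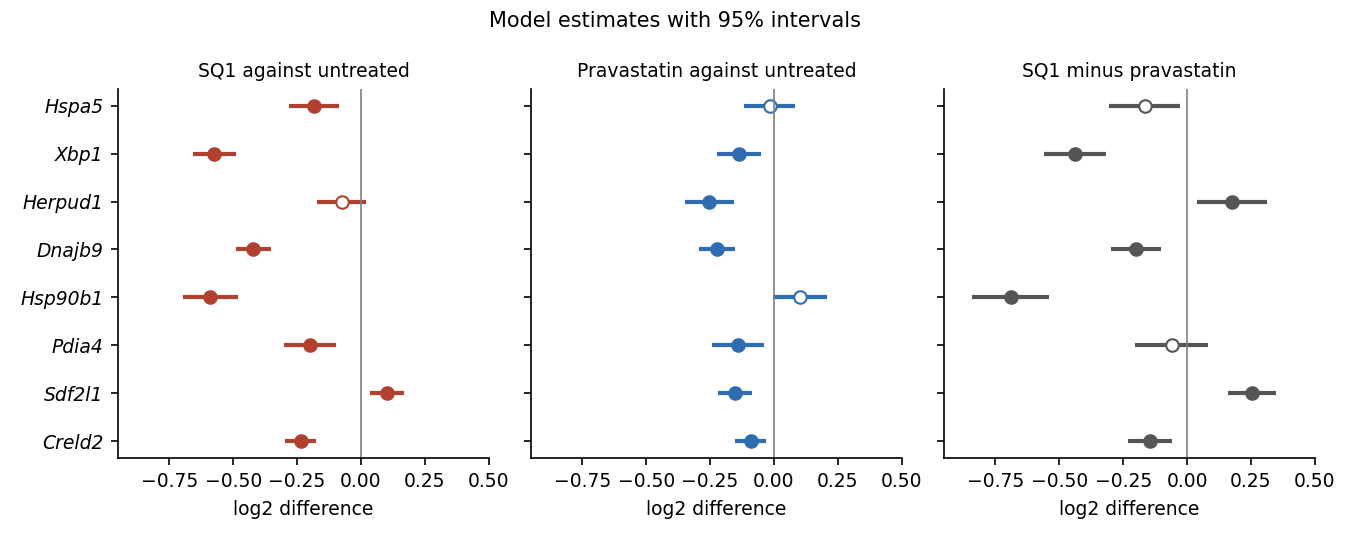
Estimates from the limma fit for the 8 genes as log2 fold changes (left and middle) and their difference (right), with 95% intervals; filled points passed the threshold and open points did not. With SQ1, Hsp90b1 (-0.59) and Xbp1 (-0.57) lie farthest from 0, and with pravastatin Herpud1 (-0.25) does.

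The arrays fell into 2 culture series of 4 arrays per drug, which were told apart by control numbers in file names and matched the 2 scan days, so series, scan day and slide cannot be told apart. The effect differed between the series, by a test of that difference, for 3 of the 8 genes with SQ1 (14.9% of all genes) and for 0 with pravastatin (5.02% of all genes). With SQ1, Xbp1 was -0.71 in series 2 and -0.44 in series 1, Hsp90b1 was -0.63 in series 2 and -0.55 in series 1, and Dnajb9 was -0.39 in series 2 and -0.45 in series 1. These 3 were called in each series, as was Creld2, at -0.30 in series 2 and -0.17 in series 1. Called in series 2 alone were Hspa5 (-0.25 in series 2 and -0.12 in series 1), Pdia4 (-0.31 in series 2 and -0.09 in series 1) and Herpud1 (-0.17 in series 2 and 0.02 in series 1). Sdf2l1 was called in series 1 alone, at 0.01 in series 2 and 0.19 in series 1. The test of the difference between the series was passed by Xbp1, Pdia4 and Sdf2l1, and by 0 of the 8 with median centring. With pravastatin, Herpud1 (-0.26 in series 2 and -0.25 in series 1), Dnajb9 (-0.19 in series 2 and -0.26 in series 1) and Sdf2l1 (-0.19 in series 2 and -0.11 in series 1) were called in both. Xbp1 (-0.16 in series 2 and -0.11 in series 1) and Pdia4 (-0.22 in series 2 and -0.06 in series 1) were called in series 2 alone, and Creld2 (-0.03 in series 2 and -0.15 in series 1) in series 1 alone. The difference SQ1 minus pravastatin was called in both series for Xbp1 (-0.55 in series 2 and -0.33 in series 1), Hsp90b1 (-0.74 in series 2 and -0.64 in series 1) and Sdf2l1 (0.20 in series 2 and 0.31 in series 1). For Dnajb9, Creld2 and Hspa5 that difference was called in series 2 alone, at -0.21, -0.26 and -0.32 in series 2 and -0.19, -0.02 and -0.02 in series 1. For Herpud1 (0.09 in series 2 and 0.27 in series 1) and Pdia4 (-0.09 in series 2 and -0.03 in series 1) it was called in neither. Whether the difference between the drugs itself changed between the series was not tested.

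Beyond the 8 genes, the wider list of ER chaperones and folding enzymes, which contains 6 of them, moved mostly down with SQ1. For this and the following lists, markers included, the shares over all genes tested were 31.2% lower and 32.7% higher with SQ1. They were 19.7% lower and 19.4% higher with pravastatin, and 19.5% lower and 18.5% higher in SQ1 minus pravastatin. Of 29 chaperone and folding genes measured, 22 fell, 4 rose and 3 were not called, with a median log2 fold change of -0.26. Pdia5, a disulfide isomerase, was at -1.09 ± 0.074 and P4hb, protein disulfide isomerase itself, at -0.68 ± 0.044 (SE, n = 8). Hyou1, the large HSP70 relative GRP170, was at -0.50, the lectin chaperone Calr at -0.33 and Pdia6 at -0.24. Against these, the oxidase Ero1a rose by 0.82 ± 0.043 and the membrane lectin Canx by 0.65 ± 0.11. With pravastatin 15 of the 29 fell, 1 rose and 13 were not called (median -0.10). Pdia5 fell by 0.38, P4hb by 0.36 and Dnajc3, the co-chaperone p58IPK, by 0.33 on the log2 scale. With median centring the pravastatin split was 12 lower and 3 higher. In SQ1 minus pravastatin 18 were lower and 4 higher (median -0.17), or 10 lower and 4 higher with median centring, with Ero1a at 0.88, Pdia5 at -0.71 and Hyou1 at -0.44.

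Genes of ERAD, the route that returns misfolded proteins to the cytosol, and of protein entry into and exit from the ER were also mostly lower with SQ1. Of 16 ERAD genes, Herpud1 included, 11 fell, 2 rose and 3 were not called (median -0.16), or 7 fell and 3 rose with median centring. Derl3, a channel component, fell by 0.69 ± 0.055 and the conjugating enzyme Ube2g2 by 0.52 ± 0.036, the HRD1 ligase gene Syvn1 fell by 0.28, and Selenok rose by 0.39 ± 0.028. With pravastatin 9 fell, 1 rose and 6 were not called (median -0.08), with Derl3 at -0.47, Selenok at 0.44 and the HRD1 partner Sel1l at -0.35. Of 26 genes of the translocon and of ER export, 21 fell with SQ1, 0 rose and 5 were not called (median -0.32). With median centring 16 fell and 3 rose. Ssr3, a translocon-associated subunit, was at -0.64 ± 0.048, the cargo receptor Surf4 at -0.63 ± 0.048 and the channel subunit Sec61b at -0.52 ± 0.036. With pravastatin 10 fell, 2 rose and 14 were not called (median -0.08), a split of 5 lower and 2 higher with median centring. The signal peptidase subunit Spcs3 was at -0.30, Ssr3 at -0.23 and Ssr1 at 0.18. In SQ1 minus pravastatin, 8 ERAD genes were lower and 2 higher, and 19 of the 26 translocon and export genes were lower and 0 higher. These became 4 lower and 1 higher, and 11 lower and 0 higher, with median centring.

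The other lists cover the sensors and the PERK branch, and no difference between lists was tested. With SQ1, 32.7% of all genes tested were called higher and 31.2% lower, and with pravastatin 19.4% and 19.7%. Of 12 genes of the sensors and their processing, 6 rose with SQ1, 3 fell and 3 were not called (median 0.07). Creb3l3, a liver ER-bound factor processed like ATF6, rose by 0.91 ± 0.052 and Creb3l1 by 0.30 ± 0.035. Bax, an apoptosis gene kept on this list but not itself a sensor, rose by 0.55 ± 0.046. Of the sensors themselves, Ern1 (IRE1) was at -0.12 ± 0.040 (limma adjusted p = 0.017), Eif2ak3 (PERK) at 0.06 ± 0.025 (adjusted p = 0.044) and Atf6 at -0.23 ± 0.14 (adjusted p = 0.17). With pravastatin 4 rose, 1 fell and 7 were not called (median 0.04), led by Eif2ak3 at 0.22, Bax at 0.16 and Creb3l1 at 0.15. With median centring the 1 that fell was not called. Ern1 was at -0.02 and Atf6 at -0.26, neither called. In SQ1 minus pravastatin 3 were higher and 2 lower, among them Creb3l3 at 0.91, Bax at 0.39 and Mbtps1, the protease that cleaves ATF6, at -0.30.

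In the PERK and ATF4 branch, 8 of 15 genes rose with SQ1, 5 fell and 2 were not called (median 0.21), or 8 and 2 with median centring. Atf4 itself rose by 0.35 ± 0.028 and its pro-apoptotic target Ddit3 (CHOP) by 0.57 ± 0.072 (SE, n = 8). Vldlr was at 0.85, the stress factor Atf3 at 0.76 and Nupr1 at -0.84. With pravastatin 2 rose, 4 fell and 9 were not called (median -0.07, or 0.0015 with median centring), with Atf4 at 0.23, Ddit3 at -0.18 (limma adjusted p = 0.06), Nupr1 at -0.44, Trib3 at -0.30 and Cebpb at -0.24. In SQ1 minus pravastatin 8 were higher and 2 lower, with Atf3 at 0.77, Ddit3 at 0.74 and Vldlr at 0.68.

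**Figure D5:**
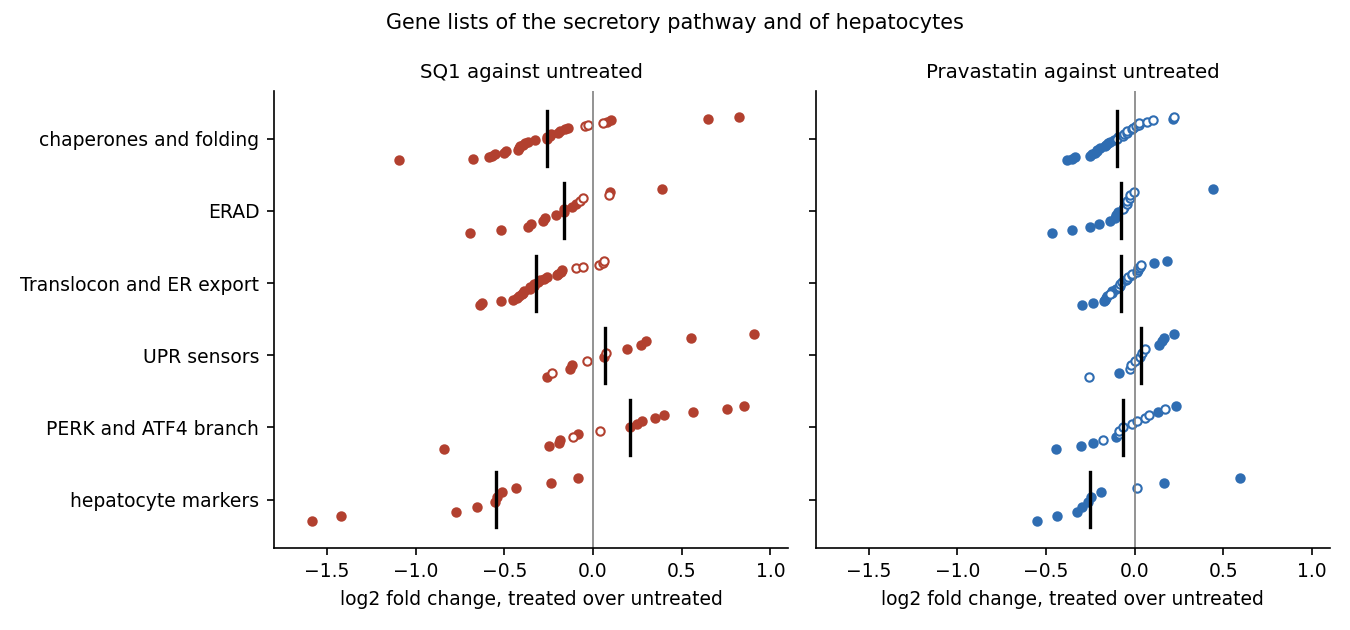
Log2 fold change of each measured gene of 5 secretory and stress lists and of the hepatocyte marker list, with SQ1 (left) and pravastatin (right); filled points were called, open points were not, and black bars are list medians. With SQ1 the chaperone, ERAD, translocon and hepatocyte medians lie below 0 (-0.26, -0.16, -0.32 and -0.55) and the sensor and PERK medians above it (0.07 and 0.21).

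Markers of hepatocytes and of other liver cells were also examined, and in bulk cultures fewer cells of a type and less RNA per cell cannot be told apart. With SQ1 all 10 hepatocyte markers fell (median -0.55), among them Cps1 at -1.59, Fgb at -1.42 and Serpina1 at -0.77, of which Fgb and Serpina1 encode secreted proteins. Their summed signal was 804200 to 1308000 in SQ1 cultures, against 1276000 to 1823000 in untreated cultures. With pravastatin 7 fell and 2 rose (median -0.26), with Cps1 at -0.55, Fgb at -0.44 and Apoa1 at 0.60, and the sum was 1144000 to 1550000 in pravastatin cultures, against 1063000 to 1723000 in untreated cultures. All 11 macrophage markers fell with SQ1 (median -0.53) and with pravastatin (median -0.83), with sums of 40290 to 60240 in SQ1 cultures, against 54210 to 99640 in untreated cultures, and of 38910 to 44090 in pravastatin cultures, against 60580 to 87370 in untreated cultures. Stellate and fibroblast markers fell in 9 of 9 with SQ1 (sum 19480 to 27450 in SQ1 cultures, against 35630 to 38910 in untreated cultures) and in 4 of 9 with pravastatin (sum 29990 to 36360 in pravastatin cultures, against 35020 to 39490 in untreated cultures). Of 4 endothelial markers tested, 3 fell with SQ1 and 1 with pravastatin. Their sum was 994.2 to 1462 in SQ1 cultures, against 1395 to 2335 in untreated cultures. With pravastatin it was 1277 to 2805, against 1327 to 2412. Of 5 cholangiocyte markers 2 fell and 1 rose with SQ1, and 1 fell and 2 rose with pravastatin. Yet the cholangiocyte sum was higher with SQ1, at 28960 to 34540, against 19480 to 23960 in untreated cultures. The 1 marker that rose with SQ1 was Epcam (0.57), while Krt7 (-0.15) and Spp1 (-0.34) fell. Bright genes weigh most in a sum. On SQ1 arrays the log2 ratio of the sum, 0.395 to 0.663, was close to that of Epcam, 0.41 to 0.69, so the sum does not stand for all 5 markers. In pravastatin cultures the cholangiocyte sum was 23000 to 32360, against 18640 to 24720 in untreated cultures. Of the plasma and B cell markers, Cd79b was above background in 0 channels, and 2 of 7 were tested. Both rose with SQ1, Sdc1 by 0.17 and Pou2af1 by 0.09, and with pravastatin Sdc1 rose by 0.13 while Pou2af1, at 0.0057, was not called. With median centring 1 of the 2 was called higher with SQ1. Their summed signal was 38200 to 49050 in SQ1 cultures, against 34680 to 44180 in untreated cultures, and 38500 to 43750 in pravastatin cultures, against 31990 to 41310 in untreated cultures. The part of these markers in the values of the 8 genes was not tested.

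The genes whose ratios followed a member most closely were ranked by Pearson's r over the 16 arrays, after the dye term was removed, among 11936 named genes. The 16 points may share untreated cultures and include both drugs and both culture series, so these values describe and do not test. For Xbp1 the closest genes were Lgals2 (0.989), Arl4d (0.988), Aspdh (0.984), Tmem176a (0.984) and Crip2 (0.982), and all were still at 0.917 or above once each drug's mean was removed. Differences between the culture series were not removed, so a shift that genes share between series stays in these values. For Hspa5 the closest genes were Mat1a (0.84), Socs3 (0.80), Mcfd2 (0.79), Hal (0.79) and Sertad1 (0.77). The closest genes to Hspa5 thus correlated less than those closest to Xbp1. Among the 28 pairs of the 8 genes, r was -0.79 to 0.83 with a median of 0.32, so they did not vary as 1 block across arrays.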

How the data were processed

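RNA was amplified and coupled to A555 or A647 per the labels' protocols, and the authors measured spots with Agilent Feature Extraction (version 10.7.1.1, build rn4, per the file headers). Spot, background and processed intensity in each colour, and the log10 of red over green, are as deposited by the authors. The deposited value table holds log2 ratios whose columns matched the array of equal number but of the other drug (correlation 1.00 after rounding, against 0.613 to 0.679 with their own label), so it served as an alternative. In R 4.3.3 with limma 3.58.1, median signals were corrected by normexp (offset 50) and loess, with signals of each culture also normalised between arrays (Aquantile). Median signals replaced the planned means because only medians are in the files. A probe was kept if at least 6 of its 32 channel measurements were well above background, and the brightest probe stood for a gene, which left 20395 genes, 11937 of them named through RefSeq (GRCr8). Of 30367 probes 17998 were named. A single fit over all 16 arrays had a term per drug and a dye term, with two-sided tests, with Benjamini-Hochberg adjustment over all genes. Array medians were 588 to 663 in A555 (background 306 to 315) and 790 to 1076 in A647 (background 339 to 348). The number of arrays limits the precision. Arrays with equal numbers had residual correlations of 0.138 to 0.629, and their shared control numbers come from the scanner file names, so the replicate number was also fitted as a block.

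The 8 genes, the gene lists, the markers and the tests were chosen with earlier results of these data known. Genes named from a list are, per comparison, among its 3 called genes of largest change, or are Atf6, Ern1, Eif2ak3, Atf4, Ddit3, Calr, Canx, P4hb, Pdia6, Hyou1, Syvn1 or Sec61b. Alternatives changed the background correction, normalisation, scaling, filter, probe rule, culture series, replicate block, arrays left out and the value table. The analysis was tested on simulated data.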

Additional observations from a re-analysis of the deposited data

Results flagged for a closer look

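The effect of SQ1 differed between the 2 culture series for 3 of the 8 genes, by a limma test of the difference itself with adjustment over all genes, where 14.9% of all genes differed. Xbp1 differed by -0.28 on the log2 scale (series 2 minus series 1; adjusted p = 0.00084), at -0.71 in series 2 and -0.44 in series 1. Pdia4 differed by -0.22 (adjusted p = 0.048), at -0.31 in series 2 and -0.09 in series 1. Sdf2l1 differed by -0.18 (adjusted p = 0.0096), at 0.01 in series 2 and 0.19 in series 1. All 3 were lower in series 2, and with median centring in place of loess 0 of the 8 were called. With pravastatin 0 of the 8 differed between the series, where 5.02% of all genes did. Series, scan day and slide cannot be told apart. In none of the 16 sets of 8 arrays, 1 per gene and drug, did a single array stand apart by Dixon's criterion. The dye effect was left in these ratios. It widens the sets that divide by dye, such as those of Hspa5, where the criterion could miss a single array.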

How the results depend on the processing

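Under the alternatives that kept the scanner files and all 16 arrays, Xbp1 and Hsp90b1 fell with SQ1 and were lower with SQ1 than with pravastatin throughout, and Sdf2l1 was higher with SQ1 than with pravastatin throughout. Scaling to 1 spread left 0 of the 8 higher and 3 lower with SQ1, and 1 higher and 2 lower in SQ1 minus pravastatin, where 3726 of all genes were called. It turned the difference between the drugs to 0.083 for Dnajb9 and 0.035 for Creld2, neither called. Median centring turned Hspa5 with SQ1 to 0.038, gave 1 higher and 3 lower with pravastatin and 2 lower in SQ1 minus pravastatin, and left 0 genes that differed between the series with SQ1. Within series 1, 3979 of all genes were called with pravastatin and 4801 between the drugs, where 1 of the 8 was higher and 2 lower with SQ1. Within series 2, 0 were higher with SQ1 and 1 in the difference, where 5 were lower, Hspa5 among them. The difference also had 1 higher gene with Agilent's processed signals, with the value table read by the array each column followed, and with slide as a random block, which was added after seeing the data (correlation 0.196). The cause of these shifts was not tested. Leaving out 1 array gave 0 to 1 higher with pravastatin and 1 to 2 higher in the difference.

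With the value table's columns under their own labels, the drugs changed places: 0 of the 8 were higher with SQ1 and 1 with pravastatin, 13428 of all genes were called with pravastatin, and in the difference 4 were higher and 1 lower. Hsp90b1 then stood at 0.12 with SQ1 and -0.60 with pravastatin, and Sdf2l1 at -0.16 with SQ1 and 0.13 with pravastatin. The difference became 0.43 for Xbp1, -0.16 for Herpud1, 0.18 for Dnajb9, 0.72 for Hsp90b1, -0.29 for Sdf2l1 and 0.15 for Creld2.

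The random replicate block (correlation 0.394) changed the call of Hspa5 in SQ1 minus pravastatin (-0.17, adjusted p = 0.03 by limma) and no other call of the 8 genes, while the fixed block left it uncalled (adjusted p = 0.069). With slide as a block the pravastatin calls of Pdia4 (adjusted p = 0.082) and Creld2 (0.057) were lost.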

Other observations

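The ERSE or ERSE-II letters were found upstream of 33 rat genes, 26 of which were tested. Of these 26, 13 fell with SQ1, 8 rose and 5 were not called (median -0.13), and 9 fell with pravastatin, 4 rose and 13 were not called. Over all genes tested, 31.2% fell and 32.7% rose with SQ1, and 19.7% fell and 19.4% rose with pravastatin. Without the 5 members among the 26, 21 genes remained, of which 9 fell with SQ1, 8 rose and 4 were not called, with a median of -0.022, near that of all genes. They include Calr, Hyou1 and Derl3, which fell with SQ1, and Canx, which rose. Zfand2a, a stress-induced zinc finger gene named after its values were seen, rose with SQ1 by 0.84 ± 0.053 (limma adjusted p = 1.3e-10) and stood at 0.10 ± 0.053 with pravastatin (adjusted p = 0.16). The difference between the drugs was 0.75 ± 0.074 for Zfand2a (adjusted p = 3e-07). Genes that share these letters thus moved in both directions with SQ1.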
